A study of Gallus gallus with 6 samples.

Results

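The redox enzymes and the genes of the NRF2 pathway were followed in whole chick embryos by RNA sequencing. The set was a named list of 44 genes for superoxide and peroxide removal, glutathione, thioredoxin, NADPH supply and the regulators and targets of NRF2. By RefSeq symbol, 43 of the 44 were found among the 24098 gene rows of the files, and KEAP1 was not matched and is not analysed here. All 43 passed the minimum of a mean of 1 FPKM (reads scaled to gene model length and library depth) over the libraries.

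Embryos of Gallus gallus (strain not stated) at Hamburger-Hamilton stage 10 fell into 2 groups, 3 control libraries and 3 libraries after treatment with zinc oxide (ZnO) nanoparticles. Besides the stage, each label holds an hour range beginning at 34 hours. Its upper limit is 39, 40 and 41 hours in the controls (1, 2 and 3) but 42, 43 and 44 in ZnO 1, 2 and 3, so this limit and the treatment cannot be told apart. Since successive labels step up by exactly 1 hour, whether the limit is a measured age is not known. Dose, route and duration are not stated, nor is the number of embryos behind a library, so p-values cover only how far these samples vary, which may be technical. The title of the series names oxidant stress, and the comparison asks whether transcripts of the antioxidant system differed in treated embryos.

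Cells remove superoxide in steps. Superoxide dismutases turn it into hydrogen peroxide, which catalase, glutathione peroxidases and peroxiredoxins then remove. The glutathione peroxidases and peroxiredoxins do so at the expense of glutathione, thioredoxin and in the end NADPH. NRF2 (gene NFE2L2) is the transcription factor that raises many of these genes when oxidants or electrophiles stop the adaptor KEAP1 from sending it to degradation. It binds DNA together with small MAF proteins, and BACH1 competes with it for the same sites. These roles are known mainly from mammals.

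Libraries held 18208501 to 19843561 reads, as solved from the FPKM steps. The first principal component, with 50.8% of the variance, did not separate the groups and had ZnO 1 (-36.3) and control 2 (-23.4) at one end and ZnO 3 (28.9) at the opposite one. The second, with 20.6%, did, at 13.3 to 15.3 in the controls and -20.3 to -6.83 with ZnO. Transcripts of 60 cytosolic ribosomal proteins had a mean deviation from the 6-library average of -0.57 in ZnO 1 and of -0.05 to 0.31 in the other 5, on the log2(FPKM + 1) scale. The 1571 shortest gene models tested had a median of -0.14 in ZnO 1, and the 3820 longest 0.05. The metallothionein genes MT3 and MT4, whose products bind zinc, summed to 258 to 302 FPKM in controls, 261 in ZnO 1, 1192 in ZnO 2 and 1653 in ZnO 3. ZnO 1 therefore lay at the control level for these zinc-responsive transcripts, and each result is also given without it where that matters. Listed markers were matched by symbol to rows above 0 in at least 1 library. Matches were found for neural tube (12 of 12 listed genes), somite (11 of 11), neural crest (11 of 11), heart (12 of 13), endothelium (9 of 10), notochord and tail bud (9 of 9), surface ectoderm (11 of 12), yolk sac and endoderm (15 of 15) and primitive red cells (10 of 15). Some matched genes were near 0, such as MYOD1 (0.036 to 0.54 FPKM), and GATA1, KLF1, ALAS2, EPOR and HBM were not matched. Each tissue list still held expressed markers, as in a whole embryo. Fewer cells of a type and less RNA per cell cannot be told apart in such samples.

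No redox gene differed past the threshold with treatment. The test was limma on log2(FPKM + 1) over 13311 genes with Benjamini-Hochberg adjustment, and 0 of 43 redox genes had an adjusted p under 0.05, as did 0 of all genes (0.0%). Adjusted p-values of the 43 ran from 0.861 to 0.999. At an unadjusted p under 0.05 there were 3 redox genes (6.98%), GPX7, GPX8 and SLC7A11, all with lower means in treated embryos, where 5.66% of all genes met that criterion, 2.61% with lower and 3.06% with higher means. With values rescaled to a common sum per library, 0 redox genes met it, against 813 of all genes. After quantile normalization 3 did, against 802 of all genes. Leaving out single libraries, 0 to 10 redox genes did, with 0 both without control 2 and without ZnO 2. With limma-voom, run on reads recovered from the FPKM steps, 0 genes passed and 744 had an unadjusted p under 0.05. In 3 redox genes (6.98%) all 3 treated libraries lay below all 3 controls, against 5.89% of all genes, and in 0 did they lie above, against 5.6% of all genes. With 43 genes, each of these shares rests on 0 to 3 of them.

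The means were lower in treated embryos for 30 of the 43 genes and higher for 13, with a median log2 difference of -0.07 against -0.03 over all genes. The share with a lower mean was 69.8%, against 56.1% of all genes. The split was 23 lower and 20 higher with values rescaled to a common sum per library, and 25 lower and 18 higher after quantile normalization. Under these scalings the redox median was -0.01 and -0.05, against 0.02 and -0.01 over all genes. Without ZnO 1 the split was 15 lower and 28 higher, with a median of 0.11 against -0.009 over all genes. ZnO 1 was the lowest of the 6 libraries in 21 of 43 redox genes (48.8%), against 30.6% of all genes. All genes are not matched to the redox set in length. By gene model length, in classes from shortest to longest, the set held 8, 20, 13 and 2 genes. All genes tested numbered 1571, 3128, 4792 and 3820 there, with ZnO 1 medians of -0.14, -0.09, -0.03 and 0.05. The redox set thus had shorter models, and the part of length in the shares set against all genes was not tested.

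The intervals of these differences show how large a mean change the libraries allow for each gene taken singly. They are not adjusted for the number of genes, so they do not bound the whole set at once. The upper end of the 95% interval was under 2-fold for 42 of 43 genes, on the FPKM + 1 scale, both with all libraries and without ZnO 1. The exception was GLRX, which had only 3 reads in ZnO 1. The lower end was above 0.5-fold for 40 of 43 genes with all libraries. It was below that for GPX8 (0.44-fold), SLC7A11 (0.46-fold) and GLRX (0.34-fold). Without ZnO 1 the lower end was 0.40-fold for GPX8, 0.48-fold for SLC7A11 and 0.44-fold for SOD3. Among classical NRF2 targets, the upper end was 1.54-fold for HMOX1, 1.39-fold for NQO1, 1.63-fold for GCLM, 1.23-fold for GCLC, 1.31-fold for TXNRD1 and 1.1-fold for SRXN1. Without ZnO 1 these ends were 1.65, 1.45, 1.76, 1.24, 1.42 and 1.04-fold.

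**Figure D1:**
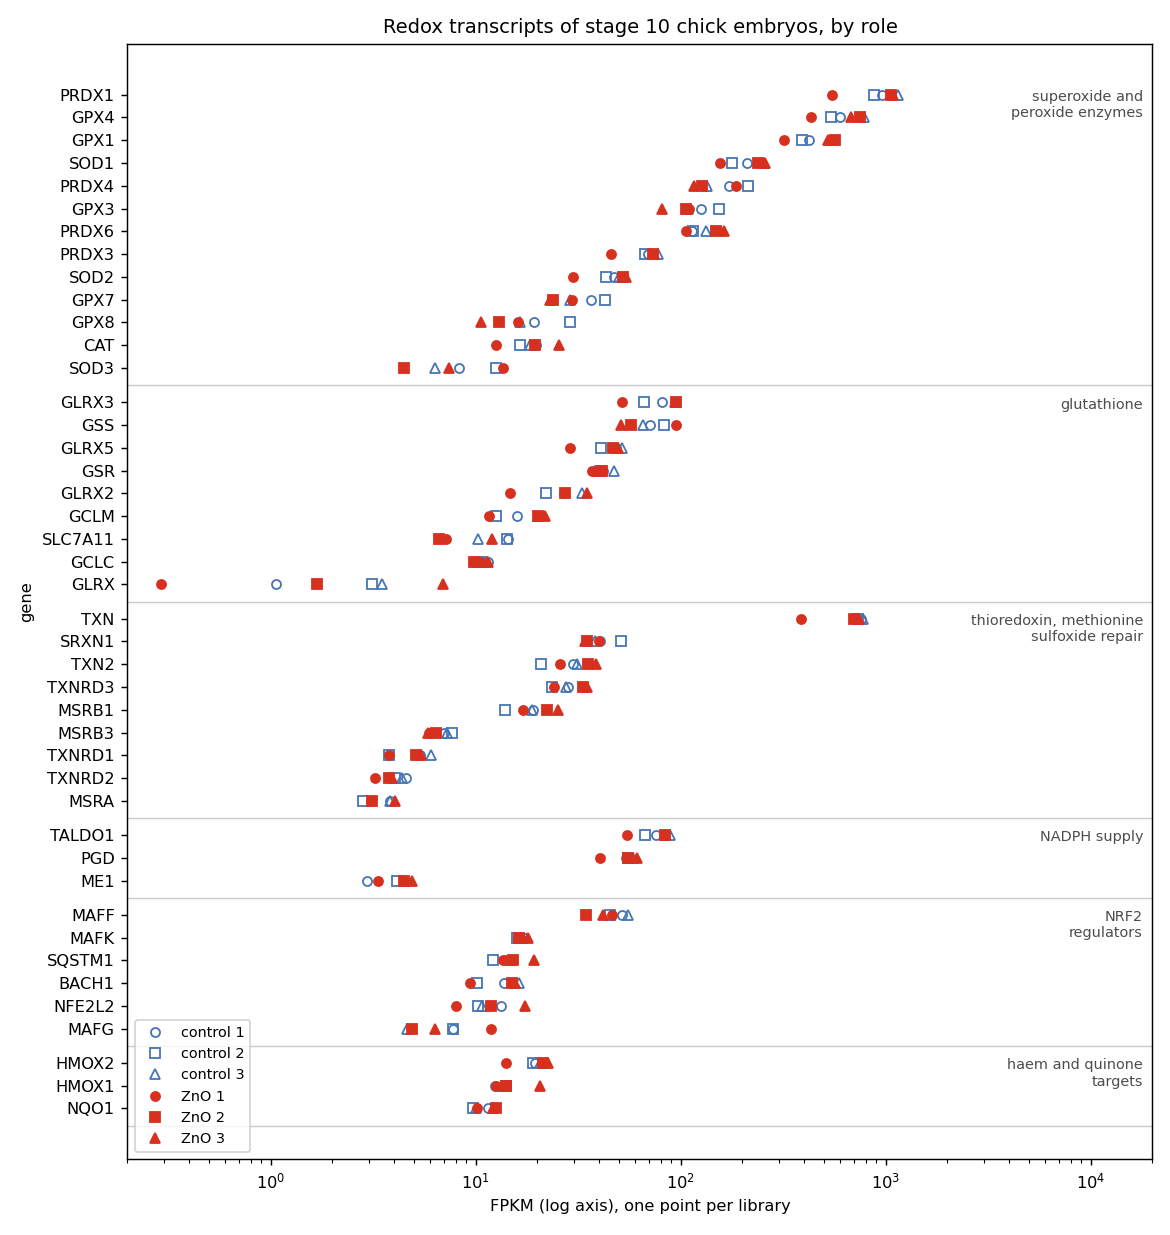
Level of each of the 43 redox genes in FPKM (log axis), grouped by role, with 1 point for each library (open blue, control; filled red, ZnO). PRDX1, TXN and GPX4 stood highest, between 388 and 1150 FPKM, and ZnO 1 (filled circle) was the lowest point in 21 of the 43 genes.

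Among superoxide dismutases, the cytosolic enzyme gene SOD1 was the most abundant, and no dismutase gene separated the groups. SOD1 (gene ID 395938) had 211, 178 and 254 FPKM in control 1, 2 and 3 and 155, 238 and 258 FPKM in ZnO 1, 2 and 3. The lowest and the highest library were both treated ones, and the log2 difference was 0.00 ± 0.24 SE, with an interval of -0.56 to 0.55. SOD2 (gene ID 374042), the mitochondrial enzyme gene, was at 47.1, 43.2 and 50.3 FPKM in the controls against 29.9, 52.1 and 54.0 FPKM with ZnO. ZnO 2 and ZnO 3 lay just above the controls and ZnO 1 well below them. SOD3, which encodes the extracellular enzyme, ran from 4.47 FPKM in ZnO 2 to 13.7 FPKM in ZnO 1. SOD1 made up 79.0% ± 2.85 (SD, n = 3) of the summed dismutase FPKM in the controls against 79.9% ± 1.57 in treated embryos.

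Catalase and the abundant glutathione peroxidases behaved alike, low in ZnO 1 and at or above the control levels in ZnO 2 and ZnO 3. CAT (gene ID 423600), the peroxisomal enzyme gene, was at 19.7, 16.4 and 18.5 FPKM in the controls against 12.5, 19.5 and 25.4 FPKM with ZnO. All controls lay between ZnO 1, the lowest library, and ZnO 3, the highest, and the mean log2 difference was 0.02 ± 0.24 SE. GPX1 (gene ID 100857115), which encodes a cytosolic peroxidase that uses glutathione, was at 422, 389.9 and 542 FPKM in the controls against 319, 563 and 524 FPKM with ZnO. GPX4 (gene ID 374056), whose product reduces lipid peroxides in membranes, was at 597, 539 and 780.0 FPKM in the controls against 434, 746 and 677 FPKM with ZnO. Neither separated the groups. The intervals were -0.57 to 0.62 for GPX1 and -0.66 to 0.53 for GPX4, around log2 differences of 0.03 and -0.06.

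The glutathione peroxidase genes of the secretory pathway, GPX7 and GPX8, had the smallest p-values of all redox genes, in the direction of lower levels. GPX8 (gene ID 426170), a peroxidase of the endoplasmic reticulum in mammals, was at 19.2, 28.9 and 16.4 FPKM in the controls against 16.1, 13.0 and 10.6 FPKM with ZnO. All treated libraries lay below all controls, though ZnO 1 and control 3 differed by little, and the groups overlapped after rescaling to a common sum. The treated mean was 0.614 of the control mean (log2 difference -0.64 ± 0.24 SE, limma adjusted p = 0.861). GPX7 (gene ID 424643), also of the endoplasmic reticulum, was at 36.5, 42.7 and 28.9 FPKM in the controls against 29.4, 23.9 and 23.1 FPKM with ZnO. Here ZnO 1 lay within the range of the controls, and the treated mean was 0.707 of the control mean (-0.48 ± 0.18 SE, adjusted p = 0.861). GPX3, the gene of the secreted plasma peroxidase, was at 129 ± 23.0 FPKM in the controls against 99.2 ± 15.6 FPKM with ZnO (SD, n = 3), with an interval of -0.83 to 0.08.

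PRDX1, the main cytosolic peroxiredoxin gene, was the most abundant redox transcript in every library. PRDX1 (gene ID 424598) was at 960.3, 881 and 1150 FPKM in the controls against 549, 1056 and 1082 FPKM with ZnO. ZnO 1 stood at 0.55 of the control mean and the other treated libraries within the range of the controls (log2 difference -0.21 ± 0.29 SE). PRDX3, the mitochondrial member, ran from 45.5 FPKM in ZnO 1 to 77.5 FPKM in control 3. PRDX4, the member of the endoplasmic reticulum, ran from 116 FPKM in ZnO 3 to 212 FPKM in control 2. PRDX6, which uses glutathione and not thioredoxin, was at 113, 115 and 133 FPKM in the controls against 107, 148 and 163 FPKM with ZnO.

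The 13 superoxide and peroxide enzymes were also divided by where in the cell the protein works. This split was drawn after the values were seen, so it carries no test. The 5 genes of secreted or endoplasmic reticulum enzymes (SOD3, GPX3, GPX7, GPX8 and PRDX4) had a mean level of 0.16, 0.55 and -0.13 in the controls and 0.17, -0.35 and -0.39 in ZnO 1, 2 and 3, as deviations from the 6-library average. The 8 genes of the cytosol, mitochondrion and peroxisome had -0.01, -0.14 and 0.20 in the controls and -0.51, 0.20 and 0.26 in treated embryos. The first set minus the second was therefore highest in control 2 and ZnO 1 (0.68 in each) and lowest in ZnO 2 and ZnO 3 (-0.55 and -0.65), with control 1 at 0.17 and control 3 at -0.33. This order is close to that on the first principal component, to which these genes also contribute, and ZnO 1 lies at the opposite end to the other treated libraries. PRDX4 as a percentage of PRDX1 was 17.8%, 24.1% and 11.6% in controls and 34.0%, 12.02% and 10.7% in treated embryos. PRDX4 belongs to the first set and PRDX1 to the second, so this ratio restates part of the split.

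Lists of tissue markers also varied between the libraries, and only some of them in like ways. The 14 tested yolk sac and endoderm markers had mean levels of -0.04, 0.26 and -0.35 in controls and 0.39, -0.38 and 0.13 in treated embryos. The yolk sac and endoderm list summed to 4310 to 10080 FPKM in controls and 3778 to 8786 FPKM in treated embryos, with no marker at 0. The 12 heart muscle markers had 0.13, 0.35 and 0.01 in controls and 0.03, -0.21 and -0.31 in treated embryos, with sums of 1537 to 1798 and 1213 to 1366 FPKM. The 9 endothelial markers had 0.14, 0.03 and -0.14 in controls and 0.28, -0.18 and -0.13 in treated embryos, with sums of 300.5 to 364 and 283 to 415 FPKM. No tested heart or endothelial marker was at 0. All 3 lists were lower in ZnO 2 than in ZnO 1, as were the secreted and endoplasmic reticulum enzymes. So was the neural tube list (0.35 in ZnO 1 and 0.23 in ZnO 2). By little, so were notochord and tail bud (0.02 and -0.01) and surface ectoderm (0.039 and 0.037). Other lists were higher in ZnO 2 than in ZnO 1, namely somite (0.09 against -0.26), neural crest (by little, 0.05 against 0.02) and red cells (-0.08 against -0.47). In ZnO 3 the yolk sac list (0.13) and these enzymes (-0.39) lay apart. The ribosomal protein list was lowest in ZnO 1, as were all 8 enzymes of the cytosol, mitochondrion and peroxisome. The part of any of these lists in the peroxidase levels was not tested.

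**Figure D2:**
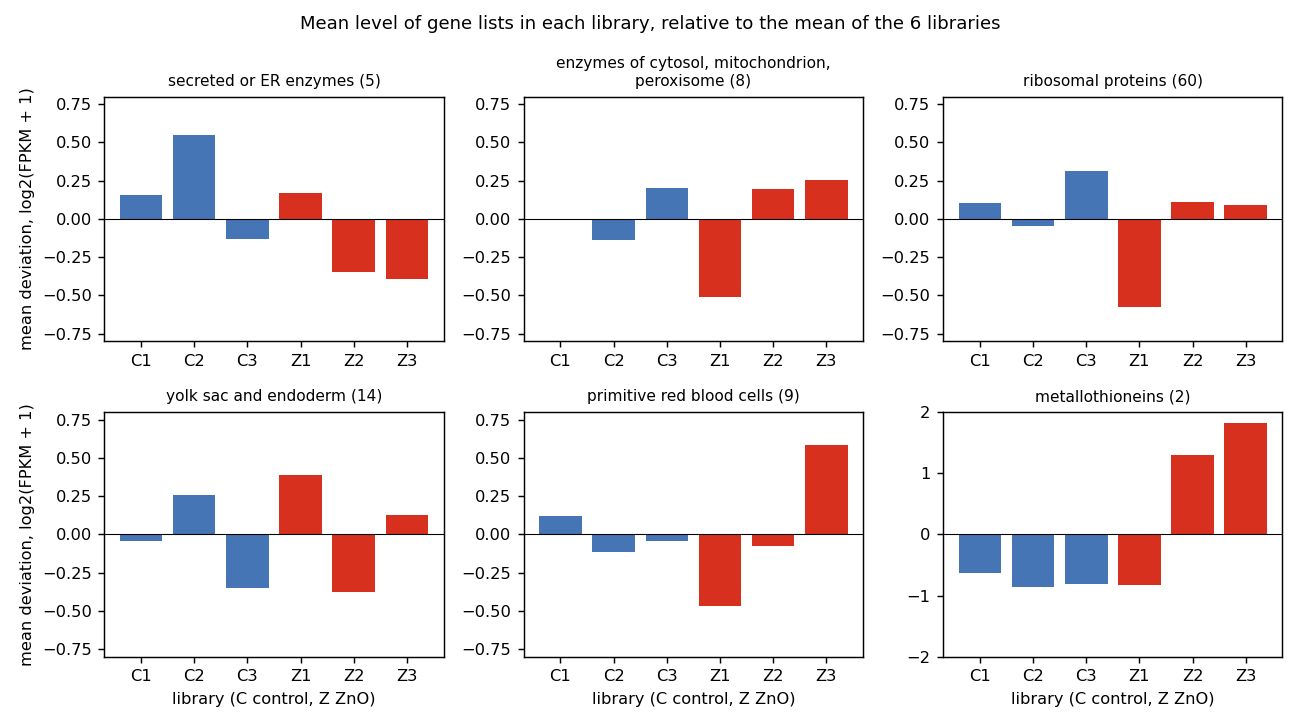
Mean level of 6 gene lists in each library (C, control; Z, ZnO), as the deviation in log2(FPKM + 1) from the 6-library average. The number of genes is in brackets, and the metallothionein panel has a wider axis. The secreted and endoplasmic reticulum enzymes were highest in control 2 (0.55), the other peroxide enzymes were lowest in ZnO 1 (-0.51), and metallothioneins were high only in ZnO 2 and ZnO 3 (1.303 and 1.82).

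In the glutathione group, the 2 subunit genes of the enzyme that limits glutathione synthesis overlapped between the groups. GCLC (gene ID 421894), the catalytic subunit, was among the steadiest redox genes, with 11.5, 10.7 and 9.99 FPKM in the controls against 10.6, 9.80 and 11.5 FPKM with ZnO. The groups covered the same range, with a log2 difference of -0.01 ± 0.13 SE and an interval of -0.32 to 0.29. GCLM (gene ID 424492), the modifier subunit, was at 15.9, 12.6 and 20.02 FPKM in the controls against 11.6, 20.1 and 21.7 FPKM with ZnO. ZnO 2 and ZnO 3 lay at or just above the highest control and ZnO 1 below the lowest.

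The cystine carrier gene had the lowest ratio of treated to control means within this group. SLC7A11 (gene ID 428731), the cystine carrier that feeds glutathione synthesis and a target of NRF2 in mammals, was at 14.4, 14.2 and 10.2 FPKM in the controls against 7.20, 6.58 and 12.04 FPKM with ZnO. ZnO 1 and ZnO 2 lay below all controls and ZnO 3 within their range. The treated mean was 0.666 of the control mean (log2 difference -0.56 ± 0.24 SE, limma adjusted p = 0.869), with 459 or more reads per library. The 95% interval, not adjusted for the number of genes, was -1.11 to -0.02, and without ZnO 1 it was -1.05 to 0.11.

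The genes of glutathione reductase and the glutaredoxins also overlapped between groups. GSR (gene ID 771783), the gene of the reductase that restores glutathione with NADPH, was at 41.8, 40.3 and 47.4 FPKM in the controls against 37.0, 41.5 and 39.3 FPKM with ZnO (log2 difference -0.13 ± 0.14 SE). GSS, the glutathione synthetase gene, was highest in ZnO 1 (94.3 FPKM) and lowest in ZnO 3 (50.9 FPKM). GLRX2, GLRX3 and GLRX5 were each lowest in ZnO 1, at 0.534 to 0.636 of the control mean. GLRX was the rarest redox transcript, from 0.290 FPKM in ZnO 1 to 6.95 FPKM in ZnO 3. Of the 9 genes, 8 had lower means in treated embryos and 1 a higher one, with a median of -0.15. Without ZnO 1 there were 4 lower and 5 higher.

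In the thioredoxin group, TXN itself was steady in 5 libraries and low in ZnO 1. TXN (gene ID 396437), the cytosolic thioredoxin gene, was at 755, 736 and 771 FPKM in the controls against 388, 702 and 738 FPKM with ZnO. The 3 controls differed by 1.05-fold, the smallest ratio of any redox gene, while ZnO 1 stood at 0.515 of their mean. The log2 difference was -0.36 ± 0.27 SE with all libraries and -0.07 without ZnO 1. The treated libraries all lay below the controls after rescaling to a common sum and after quantile normalization. TXN2, the mitochondrial thioredoxin gene, ran from 20.8 FPKM in control 2 to 38.7 FPKM in ZnO 3.

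Of the thioredoxin reductase genes, which return thioredoxin to its reduced form with NADPH, TXNRD3 was the most abundant. TXNRD1 (gene ID 418082), the cytosolic enzyme gene and an NRF2 target, was at 5.38, 3.75 and 6.06 FPKM in the controls against 3.77, 5.11 and 5.40 FPKM with ZnO. The treated libraries lay within the range of the controls (log2 difference -0.07 ± 0.20 SE). TXNRD2 (gene ID 416782), the mitochondrial enzyme gene, was at 4.59, 4.05 and 4.38 FPKM in the controls against 3.22, 3.77 and 3.91 FPKM with ZnO. Every treated library lay below every control by a narrow margin, and the groups overlapped after quantile normalization. The log2 difference was -0.21 ± 0.14 SE, with an interval of -0.53 to 0.12. TXNRD3 was at 26.5 ± 2.56 FPKM in the controls against 30.8 ± 5.92 FPKM with ZnO.

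Methionine sulfoxide reductases, which repair oxidised methionine, pointed in different directions. MSRB3 (gene ID 417833), whose product lies in the endoplasmic reticulum or mitochondrion in mammals, was at 6.97, 7.64 and 7.22 FPKM in the controls against 5.89, 6.39 and 5.87 FPKM with ZnO. The treated libraries lay below the controls under all 3 scalings, and the treated mean was 0.831 of the control mean. The log2 difference of -0.23 ± 0.13 SE did not pass (limma adjusted p = 0.943). MSRB1 (gene ID 416540), a selenoprotein gene in vertebrates, was at 19.1, 13.9 and 18.7 FPKM in the controls against 17.1, 22.2 and 25.2 FPKM with ZnO, with a log2 difference of 0.30 ± 0.19 SE. MSRA ran from 2.82 to 4.03 FPKM. SRXN1, the sulfiredoxin gene that reactivates peroxiredoxins and a classical NRF2 target, was at 43.2 ± 7.14 FPKM in the controls against 36.3 ± 3.003 FPKM with ZnO.

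**Figure D3:**
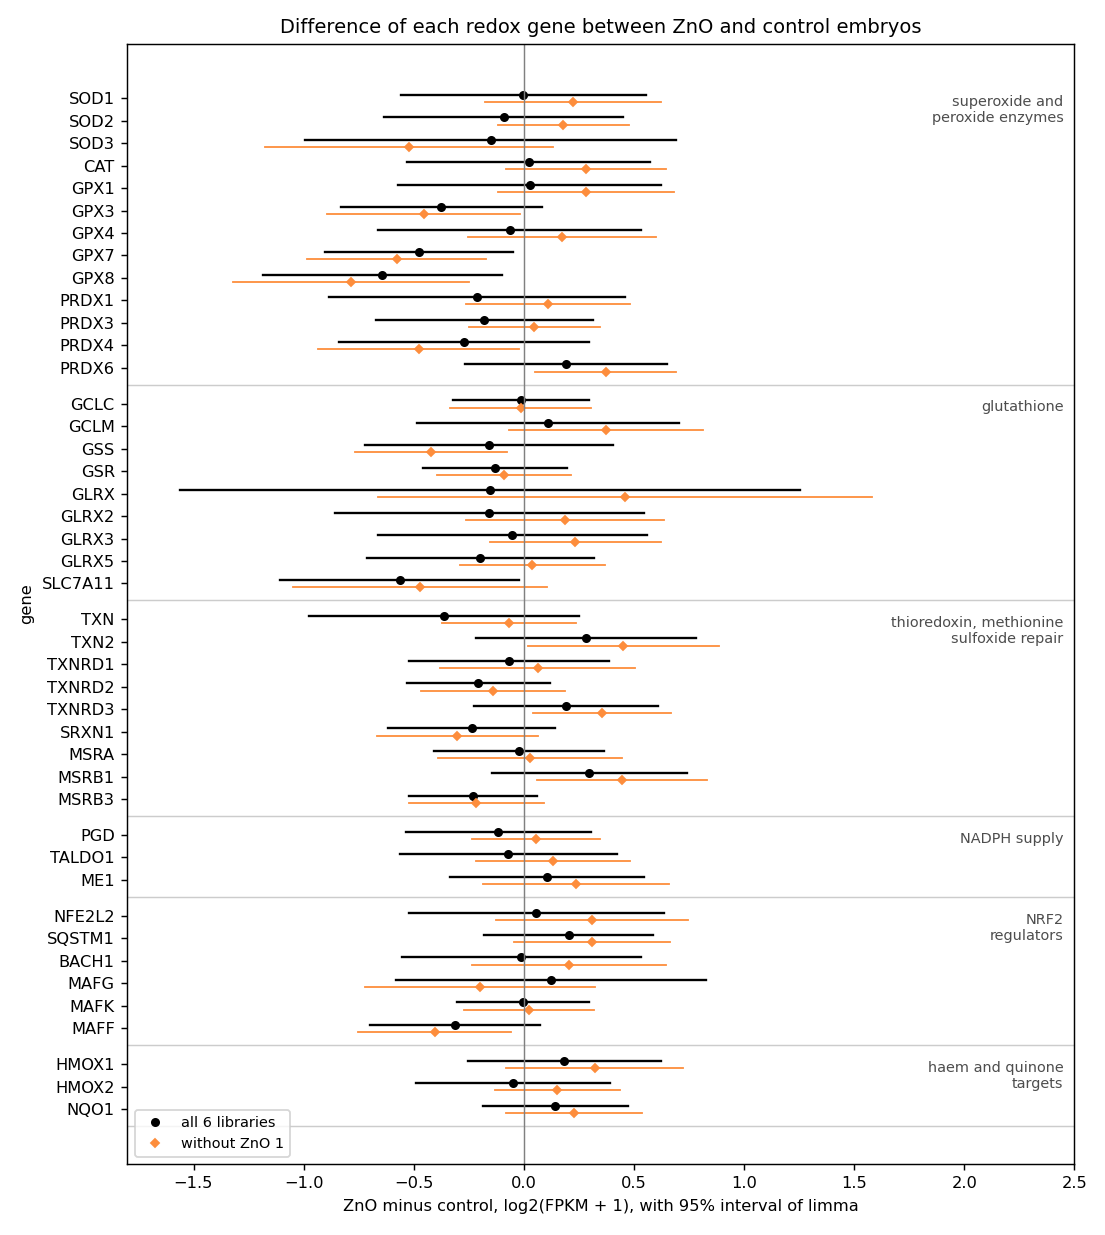
Difference of each redox gene, ZnO minus control, in log2(FPKM + 1), with its 95% interval from limma, for all 6 libraries (black circles) and without ZnO 1 (orange diamonds). With all libraries, 40 of 43 intervals include 0, and those of GPX7, GPX8 and SLC7A11 lie below it.

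Of the 3 genes of NADPH supply, 2 were lowest in ZnO 1, and none separated the groups. PGD (gene ID 419450), which makes NADPH in the pentose phosphate pathway, was at 54.1, 55.1 and 58.3 FPKM in the controls against 40.4, 55.3 and 60.9 FPKM with ZnO. Only ZnO 1 lay far from the rest, and the log2 difference was -0.12 ± 0.18 SE. TALDO1, of the same pathway, ran from 54.8 FPKM in ZnO 1 to 88.8 FPKM in control 3. ME1 (gene ID 374189), the cytosolic malic enzyme gene, was at 2.95, 4.11 and 4.54 FPKM in the controls against 3.32, 4.49 and 4.86 FPKM with ZnO, which overlapped (0.10 ± 0.19 SE).

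The regulators of the pathway were expressed at modest levels in every library. NFE2L2 (gene ID 396014), which encodes NRF2, was at 13.3, 10.3 and 10.7 FPKM in the controls against 8.05, 11.9 and 17.3 FPKM with ZnO. ZnO 1 was the lowest and ZnO 3 the highest library, and the log2 difference was 0.06 ± 0.25 SE. SQSTM1 (gene ID 770805), the autophagy receptor p62 that binds KEAP1, was at 14.1, 12.2 and 14.7 FPKM in the controls against 13.5, 15.3 and 19.2 FPKM with ZnO. The groups overlapped through ZnO 1 (0.20 ± 0.17 SE), though not after rescaling to a common sum. BACH1, the repressor, was at 13.4 ± 3.05 FPKM in the controls against 13.4 ± 3.44 FPKM with ZnO.

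MAFF was the most abundant of the small MAF genes. MAFF (gene ID 395519) was at 51.5, 45.3 and 55.6 FPKM in the controls against 46.2, 34.4 and 41.9 FPKM with ZnO. ZnO 2 and ZnO 3 lay below all controls and ZnO 1 within their range (log2 difference -0.31 ± 0.17 SE, limma adjusted p = 0.943). MAFK was among the steadiest redox genes, from 15.8 to 17.9 FPKM. MAFG was highest in ZnO 1 (11.9 FPKM) and lowest in control 3 (4.61 FPKM).

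Haem oxygenase and quinone reductase, the usual readouts of NRF2 activity, did not separate the groups. HMOX1 (gene ID 396287), the inducible enzyme gene that breaks down haem, was at 12.4, 14.1 and 13.7 FPKM in the controls against 12.5, 14.02 and 20.5 FPKM with ZnO. ZnO 1 and ZnO 2 lay within the range of the controls, and ZnO 3 stood at 1.53 times their mean. HMOX2, the constitutive enzyme gene, ran from 14.03 FPKM in ZnO 1 to 22.5 FPKM in ZnO 3. NQO1 (gene ID 769737), the quinone reductase gene, was at 11.5, 9.74 and 10.03 FPKM in the controls against 10.2, 12.6 and 12.1 FPKM with ZnO. ZnO 2 and ZnO 3 lay above all controls and ZnO 1 within their range. The primitive red cell list was also highest on average in ZnO 3, with a mean level of 0.59 against -0.47 to 0.12 in the other libraries. Of its tested markers, the globin genes, TAL1 and, by little, LMO2 were highest there. SLC4A1 was instead highest in ZnO 1 (16.0 FPKM, against 12.8 in ZnO 3). SPTB was highest in ZnO 1 (10.9 FPKM) and lowest in ZnO 3 (4.94 FPKM). The summed level of the list was 1343 to 1829 FPKM in the controls against 876, 1551 and 2742 FPKM in ZnO 1, 2 and 3. The globin gene HBE1 was listed at 0 in control 1, ZnO 1 and ZnO 3. The part of these markers in the HMOX1 level of ZnO 3 was not tested.

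ZnO 2 and ZnO 3, the libraries with high metallothionein transcripts, both lay above all controls in 9 redox genes (20.9%) and both below in 9 (20.9%), against 16.6% and 18.2% of all genes. The 9 above were SOD2, PRDX6, GCLM, TXN2, TXNRD3, MSRB1, SQSTM1, HMOX2 and NQO1. The 9 below were GPX3, GPX7, GPX8, PRDX4, GSS, TXNRD2, SRXN1, MSRB3 and MAFF. ZnO 1 was set apart in view of its values in these same data. In limma without ZnO 1, 0 of the 43 passed. The 95% interval lay above 0 for 4 of 43 (PRDX6, TXN2, TXNRD3 and MSRB1) and below 0 for 6 of 43 (GPX3, GPX7, GPX8, PRDX4, GSS and MAFF). Of all 13311 genes, 1948 (14.6%) had an unadjusted p under 0.05 there, 1157 (8.69%) with lower and 791 (5.94%) with higher means. Of all genes 0.0301% passed there, and with libraries weighted by quality 1.5% passed, again with 0 redox genes. All 10 intervals lay within 0.4 to 1.85-fold.

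A ratio between relatives within a library removes shifts that all genes of the library share. Shares of summed FPKM were computed for 22 genes of 6 families chosen after their levels were seen. PRDX6 made up 8.63%, 8.99% and 8.93% of the summed FPKM of the 4 peroxiredoxin genes in controls and 12.01%, 10.6% and 11.4% in treated embryos. All treated libraries, ZnO 1 among them, lay above the controls. In ZnO 1, however, the PRDX6 level itself was the lowest of the 6 libraries (107 FPKM). PRDX1, the largest part of the sum, stood there at 0.55 of its control mean. TXNRD3 made up 74.0%, 75.2% and 72.6% of the thioredoxin reductase sum in controls and 77.4%, 79.0% and 78.9% in treated embryos, and TXNRD2 lay below the controls (11.98%, 12.9% and 11.5% in the controls against 10.4%, 8.93% and 8.84% with ZnO). MAFF made up 67.3%, 65.7% and 71.9% of the small MAF sum in controls and 62.4%, 62.0% and 63.4% in treated embryos. These were the 4 of 22 shares whose groups did not overlap. By level, the groups did not overlap in 11.5% of all genes, but shares are another measure and no such figure was computed for them. TXNRD2 and TXNRD3 are parts of the same sum, so their shares are not separate results. Each gave p = 0.1 in a two-sided exact permutation test, the smallest that 3 against 3 libraries allow, and 0.55 after adjustment over the 22, so none passed. A share shows unequal levels of relatives and not which of them differed.

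**Figure D4:**
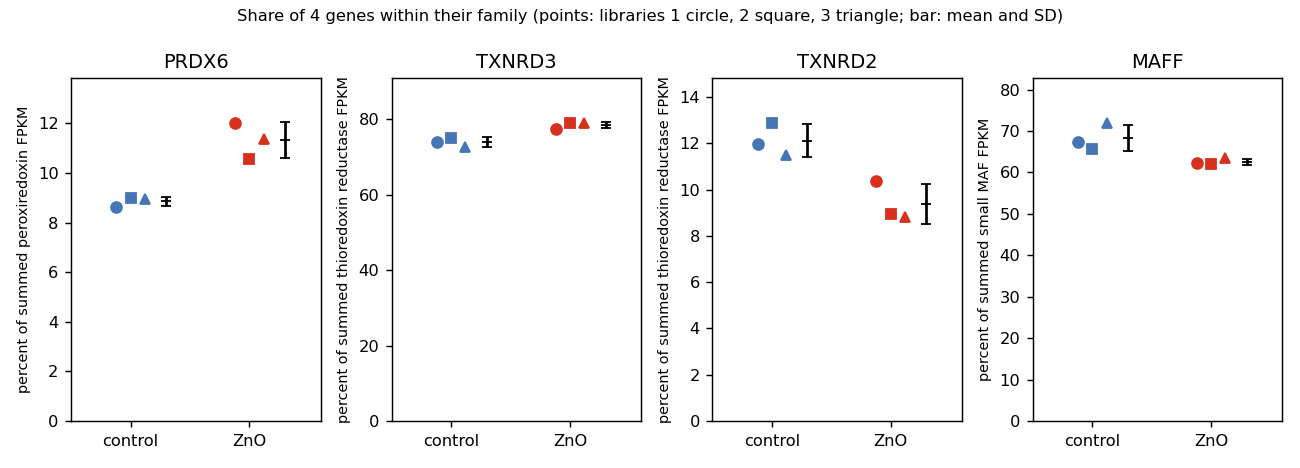
Percentage of the summed FPKM of its family that each of 4 genes held, by library (points) with the mean and SD of each group (n = 3). Shown are the 4 of 22 shares whose groups did not overlap. PRDX6 and TXNRD3 lay higher in every treated library and TXNRD2 and MAFF lower. The exact permutation p was 0.1 each, the smallest that 3 against 3 libraries allow, and 0.55 after adjustment over the 22. A p under 0.05 was thus out of reach.

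Beyond the named set, 7 further lists of redox genes held 0 genes past the threshold in limma. Their counts of higher and lower means stand beside 43.9% higher and 56.1% lower over all genes. All 3 treated libraries lay above all controls in 5.6% of all genes and below them in 5.89%. Of other NRF2 targets, 13 of 21 tested had higher means and 8 lower. FECH, the last enzyme of haem synthesis, was at 14.3, 12.7 and 15.2 FPKM in the controls against 18.6, 19.2 and 38.7 FPKM with ZnO, above all controls in each (log2 difference 0.74 ± 0.27 SE, limma adjusted p = 0.861). ZnO 3 was again the highest library, as for the mean of the red cell list. ALDH3A2, a fatty aldehyde dehydrogenase gene, was at 18.2 ± 1.93 FPKM in the controls against 23.7 ± 2.97 FPKM with ZnO, also without overlap. MGST1, in this list too, went the other way, at 106 ± 27.1 FPKM in the controls against 78.4 ± 1.29 FPKM with ZnO. Every treated library lay below every control for MGST1. Of the 21 genes, 2 thus lay above all controls in every treated library and 1 below.

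Of other regulators and partners of NRF2, 12 of 18 tested had higher means and 6 lower. In 4 of them, MAF and PALB2 included, every treated library lay above every control, and in 0 below. MAF, a transcription factor gene, had 3.43 ± 0.219 FPKM in control libraries and 5.29 ± 1.79 FPKM in ZnO libraries, and PALB2, which binds KEAP1 and BRCA2, 7.23 ± 0.0451 and 9.19 ± 1.599 FPKM. For PALB2, ZnO 1 (7.375 FPKM, 126 reads) barely exceeded control 3 (7.276 FPKM, 135 reads). ZnO 2 and ZnO 3 were at 9.825 and 10.38 FPKM.

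Selenoprotein genes and genes of selenoprotein synthesis had lower means in 15 of 22 tested and higher means in 7. In 3 of the 22 every treated library lay below every control, and in 0 above. SELENOF, a selenoprotein of the endoplasmic reticulum, was at 91.1, 110.2 and 71.7 FPKM in the controls against 56.4, 66.5 and 61.2 FPKM with ZnO, below all controls in each (-0.54 ± 0.19 SE, limma adjusted p = 0.827). SELENOK, of the same compartment, had 90.2 ± 10.5 and 69.4 ± 8.57 FPKM without overlap, and SELENOP2 102 ± 23.4 and 134 ± 14.9 FPKM.

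In the other glutathione genes, 13 of 23 tested had higher means and 10 lower. In 2 of them, MGST1 and MGST3, every treated library lay below every control, and in 0 above. The glutathione transferase genes GSTT1 (1.54 ± 0.507 and 3.82 ± 2.23 FPKM), MGST1 (106 ± 27.1 and 78.4 ± 1.29 FPKM) and MGST3 (123 ± 2.32 and 99.2 ± 18.8 FPKM) had the smallest p-values, in both directions. Of other NADPH genes 7 of 12 tested had higher means, with NADK, MTHFD1 and MTHFD2 nearest to the threshold, all at a limma adjusted p of 0.976. Among the 12, only NADK had groups that did not overlap, with every treated library below every control. Of other thioredoxin-like genes 4 of 16 had higher means, and TXNDC9, TXNL4A and TXNL1 were each lowest in ZnO 1. Among oxidant sources and opposing enzymes, 4 of 13 tested had higher means. The oxidase genes NOX5 (7.13 ± 0.889 and 5.24 ± 1.86 FPKM) and NOX1 (1.78 ± 0.273 and 2.56 ± 0.909 FPKM) overlapped between groups.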

How the data were processed

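Per the labels' protocols, Trizol was used for extraction and libraries came from 1 µg of RNA with a TruSeq kit, read as 125 or 150 bp pairs by HiSeq. The tools are TopHat2 2.0.12, Bowtie2 2.2.3 and HTSeq 0.6.1 per the submitters' processing notes, where the one build listed is that of mouse, mm10. Annotation and strand setting are not given in the sources used here. Overlapping antisense genes and close paralogs cannot be told apart.

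The authors deposited 1 value per gene and library with no unit named, and the values behave as FPKM. NCBI gene IDs were matched to symbols of the RefSeq table of GRCg7b (19704 of 24098, 81.8%), and no coordinates or sequences were used. Depths were solved from the steps of the FPKM values, and with them the reads of each of the 13311 tested genes were whole to within 0.005. They summed to 99.5% to 99.6% of each depth. A set of deliberately wrong depths gave whole reads for 0 of 500 genes. The median gene tested had 579 to 649 reads per library.

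The planned test for FPKM values was applied: a minimum mean of 1 FPKM, limma 3.58.1 in R 4.3.3 on log2(FPKM + 1) with a mean-variance trend, two-sided, Benjamini-Hochberg adjustment over 13311 genes, threshold 0.05. Differences are ZnO minus control on that scale, which understates changes of low genes. Errors are SD over 3 libraries or SE of a difference. The test was checked on simulated reads. The members and lists were chosen with earlier results of these data known.

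By the rule for named genes, every library's value was given for a list of core genes (KEAP1 was not matched), for genes whose groups did not overlap and for the 2 genes with the smallest p in each role. From each further list the 3 genes with the smallest p were named, except for some results that are not reported here. PRDX6, and all genes described only by a range, a mean or a share, were chosen after their values were seen. The planned search of promoters and proteins was not run. The alternatives were the pseudocount, the low-value filter, the scaling, sample weights, limma-voom on the recovered reads with TMM scaling, a replicate block and leaving out single libraries.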

Additional observations from a re-analysis of the deposited data

How the results depend on the processing

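No redox gene passed the threshold under any of the 15 alternatives, where the lowest adjusted p was 0.0561 (GPX7 with sample weights). Over all genes, 0 passed with all libraries and equal weights under every pseudocount, filter, scaling, replicate block or limma-voom. Sample weights gave 200 genes and 3122 at an unadjusted p under 0.05 (weights of 3.94 for control 1, 2.36 for ZnO 2 and 0.197 for ZnO 1), and NOX5 passed there. Leaving out single libraries gave 0 to 4 genes, and 396 to 1948 at an unadjusted p under 0.05 against 754 with all, with both highest values without ZnO 1, and 396 and 414 without control 1 and control 2. Without control 2 and ZnO 1, added once the data had been seen, 3 genes passed and 1362 had an unadjusted p under 0.05, and with no low-value filter there were 1153. The number of redox genes with a lower mean was 30, 15 to 34 without single libraries, 19 with sample weights and 19 without control 2 and ZnO 1. The cause was not tested. The further named genes kept their direction in all alternatives.

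Of 645 recomputed differences of redox genes, 553 kept their direction. The 17 genes that never turned include GPX3, GPX7, GPX8, PRDX4, PRDX6, SLC7A11, TXN, TXNRD2, MSRB3, MAFF, SQSTM1 and NQO1. The log2 differences that turned had a size of at most 0.21 with all libraries. With values rescaled to a common sum, the differences that turned were SOD1 0.058, GCLC 0.044, GLRX3 0.0064, MSRA 0.028, BACH1 0.046, MAFK 0.055 and HMOX2 0.006. After quantile normalization, the differences that turned were SOD1 0.013, GPX4 0.0065, GCLC 0.0055, BACH1 0.0095 and MAFK 0.017. With sample weights, the differences that turned were SOD1 0.16, SOD2 0.12, GPX4 0.20, PRDX1 0.072, PRDX3 0.027, GLRX 0.44, GLRX2 0.054, GLRX3 0.17, PGD 0.023, TALDO1 0.11, BACH1 0.12, MAFG -0.33 and HMOX2 0.11. In limma-voom, the differences that turned were SOD1 0.013, GCLC 0.001, BACH1 0.0027 and MAFK 0.011. Without control 2 and ZnO 1, the differences that turned were SOD1 0.095, SOD2 0.12, GPX4 0.059, PRDX1 0.024, PRDX3 0.0053, GLRX 0.60, GLRX2 0.045, GLRX3 0.10, PGD 0.046, TALDO1 0.037, BACH1 0.035, MAFG -0.091 and HMOX2 0.13. Leaving out single libraries gave these ranges for genes that turned: SOD1 -0.14 to 0.22, SOD2 -0.24 to 0.18, SOD3 -0.52 to 0.19, CAT -0.20 to 0.28, GPX1 -0.13 to 0.28, GPX4 -0.22 to 0.17, PRDX1 -0.38 to 0.11, PRDX3 -0.30 to 0.048, GCLC -0.066 to 0.039, GCLM -0.049 to 0.37, GSS -0.42 to 0.016, GLRX -0.85 to 0.46, GLRX2 -0.42 to 0.19, GLRX3 -0.20 to 0.23, GLRX5 -0.34 to 0.039, TXNRD1 -0.23 to 0.064, MSRA -0.13 to 0.036, PGD -0.23 to 0.055, TALDO1 -0.17 to 0.13, ME1 -0.0395 to 0.24, NFE2L2 -0.20 to 0.31, BACH1 -0.18 to 0.21, MAFG -0.20 to 0.36, MAFK -0.052 to 0.022, HMOX1 -0.013 to 0.32 and HMOX2 -0.17 to 0.15.

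In the check of replicate numbers, same-numbered control and ZnO libraries had correlations of -0.033, -0.365 and 0.407 in their deviations from group means. These values show no common pairing by number, but 3 correlations cannot settle whether the samples were paired. The highest correlation was that of control 2 with ZnO 1 (0.579). The fit with the replicate block gave 0 genes and 758 at an unadjusted p under 0.05. The alternative motif of the promoter search was not run. GLRX alone among the redox genes had under 100 reads in a library, so relative counting error is largest there. It also bears on other genes with low reads, where groups lay apart by little. TXNRD2 had 296 reads in ZnO 3 against 301 in control 2, and MSRB3 292 in ZnO 2 against 308 in control 1. NQO1 had 248 in ZnO 3 against 233 in control 1.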
